A study of Mus musculus with 10 samples.

Results

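Heat shock chaperones are described here through 10 genes, *Hspa1a*, *Hspa1b*, *Hspa5*, *Hspa8*, *Hsp90aa1*, *Hsph1*, *Dnajb1*, *Hspb1*, *Bag3* and *Hspd1*, chosen by name from the 53974 genes of an RNA-seq table, together with the ATAC-seq regions within 1000 bp of an end of these genes (8 of 16600 regions). All mice were C57BL/6 carrying floxed *Arid1a* (Arid1a fl/fl), aged 8 to 10 weeks, and every retina had been crushed, so WT means floxed mice given AAV2-GFP and cKO means floxed mice given AAV2-Cre (genotype label Arid1a del/del). Virus was injected into the vitreous 2 weeks before optic nerve crush (ONC), and cells were taken 3 days after ONC. The CMV promoter of these vectors does not restrict Cre to retinal ganglion cells (RGCs), 4 to 5 retinas were pooled for a library, and cells were freed with papain for 20 min at 37 °C before Thy1.2-positive cells were sorted. RNA-seq had 3 libraries per label and ATAC-seq 2 per label. No uninjured library was used, so no value below measures the response to crush itself.

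Heat shock proteins are molecular chaperones, which bind unfolded or partly folded proteins and help them fold, stay soluble or be degraded. In the cytosol, J-domain proteins such as DNAJB1 hand clients to HSP70 and stimulate its ATPase, and exchange factors such as HSPH1 and BAG3 then release the nucleotide, while HSP90 takes over clients that are close to their final fold. Under proteotoxic stress the transcription factor HSF1 binds heat shock elements and raises the inducible members, whereas the ER chaperone gene *Hspa5* answers to the unfolded protein response. Small heat shock proteins and HSP70 are well known as stress proteins of injured retina.

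The promoter sequences show how alike the inducible pair is and which stress elements the members carry. A window from 250 bases before to 50 bases after a gene's start was available from RefSeq (GRCm38.p6) for 8 members (11 windows). *Hspa8* and *Hsp90aa1* had no entry. The 250 bases before the start are given 5′ to 3′ on the gene's strand for *Hspa1a* (chr17:34972157-34972406, minus strand) and *Hspa1b* (chr17:34959239-34959488, minus strand). A heat shock element of 2 exact units is in capitals.
Hspa1a: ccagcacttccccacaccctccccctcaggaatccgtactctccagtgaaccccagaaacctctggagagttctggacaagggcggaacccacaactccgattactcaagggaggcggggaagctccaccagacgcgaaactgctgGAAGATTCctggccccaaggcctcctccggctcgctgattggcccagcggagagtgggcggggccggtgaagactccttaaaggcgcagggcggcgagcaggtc
Hspa1b: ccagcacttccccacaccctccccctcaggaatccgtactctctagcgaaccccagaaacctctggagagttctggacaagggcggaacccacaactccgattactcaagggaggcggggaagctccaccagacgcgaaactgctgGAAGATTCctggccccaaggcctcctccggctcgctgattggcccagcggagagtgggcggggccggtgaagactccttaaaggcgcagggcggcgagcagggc
The pair had the same base at 247 of 250 positions (98.8%), and in both the element began 104 bases before the start. The transcribed parts of these paralogs are also nearly the same, so reads can be split between them in quantification and each value alone is uncertain. The promoter of *Hspa5* (chr2:34771840-34772089, plus strand) is shown because it carried the ER stress element, in capitals, which began 65 bases before the start.
Hspa5: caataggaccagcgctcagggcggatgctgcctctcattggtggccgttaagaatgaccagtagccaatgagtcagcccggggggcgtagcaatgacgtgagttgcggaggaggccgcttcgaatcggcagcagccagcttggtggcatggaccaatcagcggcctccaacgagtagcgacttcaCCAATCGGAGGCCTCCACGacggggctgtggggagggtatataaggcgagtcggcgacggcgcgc

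Heat shock elements were searched as alternating units of GAA and TTC with 2 bases between units. They could start with either unit and so were read on both strands. Only exact units were counted, so an element with a changed base in a unit was missed or shortened. The lack of a match is therefore not the lack of an element. Elements of 3 units were found in *Hsph1* and *Hspd1*, 2 of 8 members with a promoter, against 0.603% of the 32851 promoter windows of the table. Both are shown in a stretch of 30 bases with the element in capitals. That of *Hsph1* (chr5:149636279-149636308, minus strand) lay 15 to 27 bases after the start of one of the gene's 2 promoter entries and 36 to 48 bases after that of the other, and that of *Hspd1* (chr1:55088053-55088082, minus strand) was a pair of overlapping elements from 144 to 127 bases before one of its 2 starts (position 55087932), which places them 167 to 184 bases after the other (position 55088243).
Hsph1: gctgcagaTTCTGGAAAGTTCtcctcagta
Hspd1: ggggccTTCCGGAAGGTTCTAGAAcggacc
Elements of 2 units, which are contained in those of 3, were found in 6 of 8 members against 15.1% of all windows. The ER stress element (CCAAT, 9 bases, CCACG) was found only in *Hspa5* among the members, against 0.119% of all windows. The CCAAT box (CCAAT) was in 6 of 8 members against 37.4%, and the GC box (GGGCGG) in 8 of 8 against 35.7%. The TATA box in the exact letters TATAAA was in 0 of 8 against 13.6%. Variants, such as the tatataag of the printed *Hspa5* promoter, were not counted. All were searched on both strands, the CCAAT box is part of the ER stress element, and a match is a description of letters and not a binding site. A member with 2 windows counted if either matched, whereas the shares of all promoters are per window, so the 2 measures differ. The nearly identical *Hspa1a* and *Hspa1b* counted as 2 members.

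The targeted gene and the cell type were checked first. *Arid1a* was 18.8, 11.7 and 14.1 TPM (transcript abundance per length, scaled to a fixed sum in each library) in the libraries labelled WT and 18.8, 27.9 and 25.0 TPM in those labelled cKO. Gene-level TPM draws on reads from all exons and does not read the floxed part alone. The RNA level did not fall with the label, so directions below are those of the libraries labelled cKO against those labelled WT. Summed TPM of 12 RGC markers was 148 to 206 in WT and 234 to 262 in cKO, with the defining marker *Pou4f2* listed at 0 in every library except cKO replicate 3 (0.143 TPM). *Thy1*, the sort marker, which is also on the T cell list, and *Isl1* made up most of that sum. Of the 10 RGC markers tested, 7 had a positive log2 fold change and 3 a negative one, beside 10733 and 6822 of the 17555 genes tested. The negative ones were *Rbpms*, *Pou4f1* and *Sncg* (-0.41, -0.64 and -0.83), all with overlapping groups. Every cKO library was above every WT library for 3 of 10, *Thy1*, *Stmn2* and *Tubb3* (0.71, 0.97 and 1.01), against 18.7% of all genes. The 10 rod markers summed to far more, 13277 to 18510 in WT and 27504 to 51041 in cKO. T cell markers summed to 751 to 2125 in WT and 294 to 559 in cKO, with 9 of 10 lower. Myeloid markers summed to 2069 to 3374 and 852 to 1172, with 9 of 9 lower. Mueller glia and astrocyte markers summed to 9441 to 18712 and 7695 to 17675, also with 9 of 9 lower. All 5 tested markers were lower in each of the B cell, endothelial and pericyte, and erythrocyte lists. Higher in cKO were 10 of 10 rod, 6 of 6 cone, 8 of 8 bipolar and 7 of 8 amacrine markers. These counts are of the sign of the log2 fold change, which was negative for 6822 of 17555 genes. In such bulk samples fewer cells of a type and less RNA per cell cannot be told apart. WT replicate 2 stood apart, with 61.2% of genes at 0 against 53.7% to 56.0% in the other libraries. Sequencing depth is not kept in TPM and is unknown.

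*Hspa8* and *Hsp90aa1*, both cytosolic chaperones, were the most abundant members, and all 10 members passed the filter of 1 TPM in at least 3 libraries. The members made up 0.461% to 0.560% of all TPM in 5 libraries and 0.360% in WT replicate 2. In WT the order of mean TPM was *Hspa8*, *Hsp90aa1*, *Hspa1a*, *Hspa5*, *Hspd1*, *Dnajb1*, *Hspa1b*, *Hsph1*, *Bag3* and *Hspb1*. Each neighbouring pair in that order had overlapping WT libraries, except *Hsp90aa1* above *Hspa1a* and *Hsph1* above *Bag3*. In cKO *Hspa1a* followed *Hspd1* and *Hspa5* and its 3 libraries were below all 3 cKO libraries of *Hspa5*, and *Hspa1b* followed *Hsph1*, again without overlap.

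**Figure D1:**
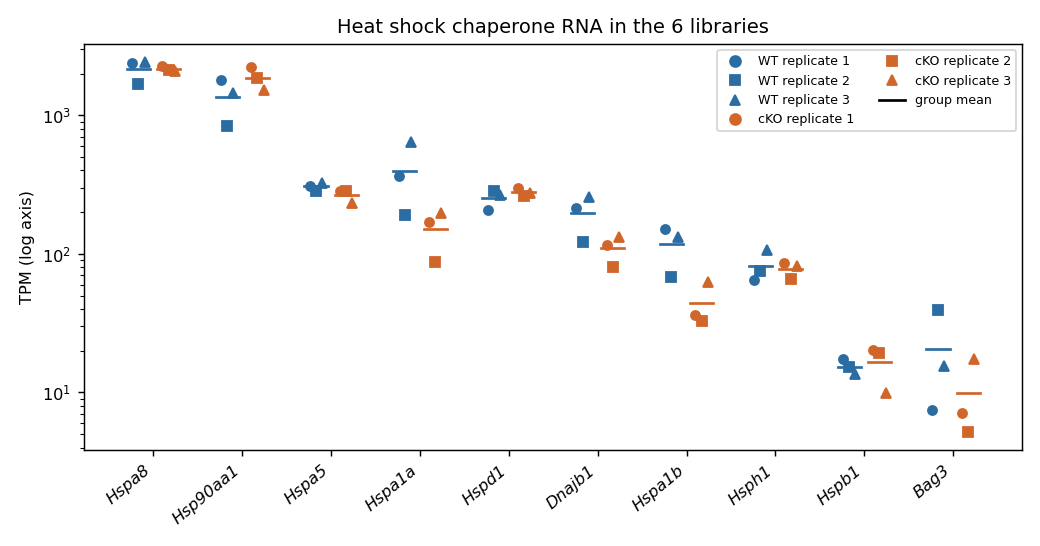
TPM (log axis) of the 10 chaperone genes in each of the 6 RNA-seq libraries, WT in blue and cKO in orange, with a symbol per replicate and a line at each group mean. *Hspa8* and *Hsp90aa1* lie near or above 1000 TPM and *Hspb1* and *Bag3* near or below 40 TPM, and *Hspa1b* is the gene whose cKO points all lie below its WT points.

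The stress-inducible HSP70 genes *Hspa1a* and *Hspa1b* had lower levels in the cKO libraries, but neither passed the test over all genes. *Hspa1a* was 362, 191 and 641 TPM in WT replicates 1 to 3 and 171, 87.4 and 198 TPM in cKO replicates 1 to 3. Only cKO replicate 3 and WT replicate 2 overlapped. Mean *Hspa1a* was 398 ± 227 TPM in WT and 152 ± 57.7 TPM in cKO (SD, n = 3), a log2 fold change of -1.30 (SE 0.50, 95% interval -2.47 to -0.12, limma adjusted p = 0.233). *Hspa1b* was 152, 68.2 and 133 TPM in WT and 36.4, 32.9 and 62.8 TPM in cKO. All cKO libraries were below all WT libraries for *Hspa1b*, with 62.8 against 68.2 TPM at the nearest point. Its means were 118 ± 44.0 and 44.0 ± 16.4 TPM (SD, n = 3), a log2 fold change of -1.38 (SE 0.39, 95% interval -2.29 to -0.47, limma adjusted p = 0.151).

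Because reads of this pair can be exchanged, their sum was also compared. The sum was 515, 259 and 774 TPM in WT and 208, 120 and 261 TPM in cKO. The overlap was narrow, 259 against 261 TPM, and the WT mean of 516 ± 257 TPM was 2.63 times the cKO mean of 196 ± 71.0 TPM (SD, n = 3). The log2 difference of the sum was -1.32 (two-sided exact permutation test, p = 0.200, where 0.1 is the smallest p that 3 against 3 libraries allow). The sum was lower in cKO in all 3 pairs of same-numbered libraries, and with that replicate block the exact permutation p was 0.250, the smallest that 3 pairs allow. *Hspa1a* was 2.38 to 4.82 times *Hspa1b* in the WT libraries and 2.65 to 4.70 times in the cKO libraries, so the proportion of the pair did not separate the labels.

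*Dnajb1*, the J-domain partner that loads clients onto HSP70, had the same direction. It was 214, 122 and 255 TPM in WT and 116, 80.1 and 132 TPM in cKO. WT replicate 2 again fell among the cKO libraries. Means were 197 ± 68.4 and 110 ± 26.7 TPM (SD, n = 3), 1.80 times higher in WT, with a log2 fold change of -0.81 (SE 0.34, 95% interval -1.60 to -0.01, limma adjusted p = 0.268). The 6 libraries stood in the same order for *Dnajb1* as for *Hspa1a*, from cKO replicate 2 as the lowest through cKO 1, WT 2, cKO 3 and WT 1 to WT 3. That order was shared with *Hspa1a* by 64 of the 17554 other genes tested (0.365%), *Dnajb1* being the 1 member among them. The comparison of orders was not planned, all genes share the 6 libraries, and the share is given as a description and not as a test. Within each label, replicate 2 was the lowest for *Hspa1a*, *Hspa1b* and *Dnajb1*.

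**Figure D2:**
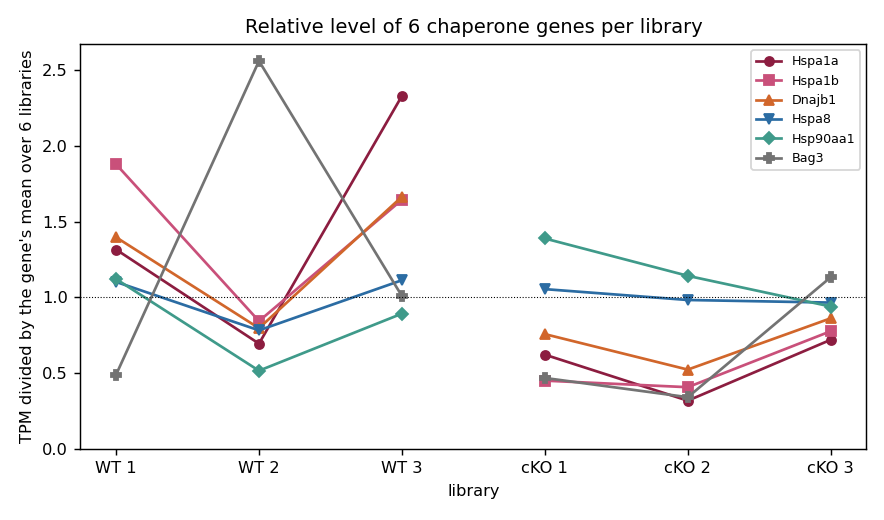
TPM of 6 chaperone genes in each library divided by the gene's own mean over the 6 libraries, with lines joining replicates of a label only as a guide to the eye. *Hspa1a*, *Hspa1b* and *Dnajb1* dip in WT replicate 2 and lie below 1 in all 3 cKO libraries. *Hspa8* and *Hsp90aa1* also have their lowest WT value in replicate 2, whereas *Bag3* peaks there. *Hsp90aa1* lies above 1 in cKO replicates 1 and 2.

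*Hsph1* and *Bag3*, nucleotide exchange factors of HSP70, did not have the library order of *Hspa1a* and *Dnajb1*. *Hsph1*, an HSP110 protein, was 65.2, 75.5 and 106 TPM in WT and 86.3, 66.3 and 81.1 TPM in cKO. Its groups overlapped, with a log2 fold change of -0.06 (SE 0.25, 95% interval -0.65 to 0.53, limma adjusted p = 0.922). *Bag3*, which links HSP70 to small heat shock proteins and to selective autophagy, was 7.46, 39.1 and 15.4 TPM in WT and 7.14, 5.20 and 17.3 TPM in cKO. Here WT replicate 2 was the highest library, not among the lowest, and cKO replicate 3 exceeded the other WT libraries. The log2 fold change of *Bag3* was -0.86 (SE 0.64, 95% interval -2.38 to 0.65, limma adjusted p = 0.509), and without WT replicate 2 it was -0.28 (limma adjusted p = 0.813).

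The constitutive HSP70, *Hspa8*, had nearly equal means and *Hsp90aa1*, the other abundant cytosolic chaperone, had a higher mean in cKO. *Hspa8* was 2381, 1690 and 2405 TPM in WT and 2278, 2123 and 2086 TPM in cKO. The cKO libraries lay inside the WT range, with means of 2159 ± 406 and 2162 ± 102 TPM (SD, n = 3) and a 95% interval of the log2 difference from -0.55 to 0.59 (limma adjusted p = 0.976). *Hsp90aa1*, the stress-responsive cytosolic HSP90, was 1809, 832 and 1440 TPM in WT and 2241, 1843 and 1516 TPM in cKO. Only WT replicate 1 lay above a cKO library. Its log2 fold change was 0.51 (SE 0.34, 95% interval -0.29 to 1.31, limma adjusted p = 0.463) and fell to 0.19 without WT replicate 2.

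*Hspb1*, a small heat shock protein that holds unfolded clients without ATP, was 17.3, 15.3 and 13.5 TPM in WT and 20.1, 19.4 and 9.85 TPM in cKO. The cKO libraries lay on both sides of the WT range, with a log2 fold change of 0.03 (SE 0.33, limma adjusted p = 0.967). The organelle chaperones varied little between libraries. *Hspd1*, the mitochondrial HSP60 chaperonin, was 208, 285 and 264 TPM in WT and 297, 261 and 275 TPM in cKO, a log2 fold change of 0.15 (95% interval -0.34 to 0.64, limma adjusted p = 0.732). *Hspa5*, the ER-resident HSP70 also called BiP, was 311, 282 and 327 TPM in WT and 282, 284 and 232 TPM in cKO, a log2 fold change of -0.21 (95% interval -0.67 to 0.25, limma adjusted p = 0.602). From the lowest to the highest library, *Hspa5*, *Hspa8* and *Hspd1* spanned 1.41, 1.42 and 1.43 times, against 7.34 times for *Hspa1a* and 7.52 times for *Bag3*.

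Over the members, 0 of 10 passed an adjusted p of 0.05 in either direction by limma. Across all 17555 genes tested, 0.00570% passed it as higher in cKO and 0% as lower. At an unadjusted p of 0.05, 3 of 10 members were lower (*Hspa1a*, *Hspa1b* and *Dnajb1*) against 6.45% of all genes, and 0 of 10 were higher against 11.9%. This count of 3 was 1 without WT replicate 1, without WT replicate 3 or without cKO replicate 2, and 2 without cKO replicate 1. It was also 2 in limma without trend, with a mean of at least 5 TPM, with no filter on low values and with a pseudocount of 0.1. With all 6 libraries, 1 of 10 members had every cKO library below every WT library against 7.18% of all genes, and 0 had every cKO library above against 18.7%. Without WT replicate 2, a comparison added after the data were seen, the cKO libraries lay below the other WT libraries for 5 members (*Hspa1a*, *Hspa1b*, *Hspa5*, *Hspa8* and *Dnajb1*) against 11.7% of all genes, and above them for 0 against 28.0%. The log2 fold changes without that library were -1.74 for *Hspa1a* (limma adjusted p = 0.121), -1.73 for *Hspa1b* (limma adjusted p = 0.0889) and -1.12 for *Dnajb1* (limma adjusted p = 0.121).

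The members' median log2 fold change was -0.13, beside 0.16 for all genes tested. When libraries were scaled by the median of ratios these became -0.30 and 0.01, and the small positive differences of *Hspa8*, *Hspb1* and *Hspd1* turned to -0.15, -0.13 and -0.02. With that scaling the share of unadjusted calls that were higher in cKO moved from 64.9% to 44.2% over all genes.

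**Figure D3:**
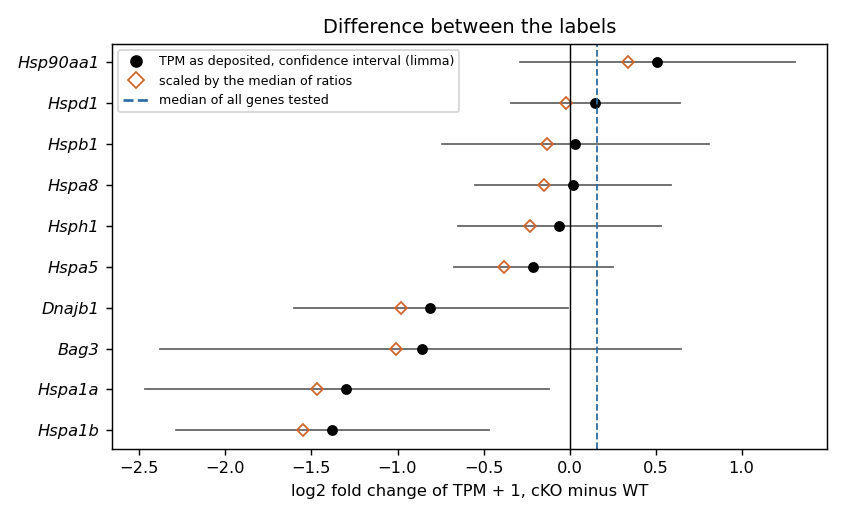
Log2 fold change of TPM + 1 (cKO minus WT) of each chaperone gene with its 95% interval from limma (black), the value after scaling by the median of ratios (open orange diamonds) and the median of all genes tested (dashed line, 0.16). The intervals of *Hspa1a*, *Hspa1b* and *Dnajb1* end below 0, that of *Bag3* is the widest, and *Hsp90aa1* is the highest at 0.51.

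The partners of these chaperones were read from lists of 106 further genes, 101 of which were tested. Of those, 0 passed an adjusted p of 0.05 by limma in either direction, and at an unadjusted p of 0.05 there were 7 of 101 higher, against 11.9% of all genes, and 6 of 101 lower, against 6.45%. Neither count stood above the share over all genes, and the counts of the single lists below are read against the same shares. Among other HSP70 family genes, 2 of 8 were higher (11.9% of all genes) and 0 lower (6.45%) at an unadjusted p of 0.05, with a median log2 fold change of 0.36 (0.19 after scaling by the median of ratios). *Hspa12a*, a distant HSP70 relative, was 30.9 to 37.9 TPM in WT and 59.0 to 89.0 TPM in cKO without overlap (log2 fold change 1.12, SE 0.23, limma adjusted p = 0.124). *Hspa4l*, of the HSP110 group, was 66.4 to 82.0 and 109 to 129 TPM, also without overlap (log2 fold change 0.72, limma adjusted p = 0.150). The lowest of the list were *Hspa4* (log2 fold change -0.18) and *Hspa2* (log2 fold change -0.04), both with overlapping groups. They were the 2 of 8 with a negative log2 fold change, beside 6822 of 17555 over all genes.

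Other J-domain genes had 2 of 22 higher and 0 lower at an unadjusted p of 0.05, a share of higher genes no larger than the 11.9% of all genes, and a median of 0.13, which was -0.03 after that scaling. The 2 with the highest values were *Dnajc27* (log2 fold change 0.92, limma adjusted p = 0.124) and *Dnajc5*, the synaptic vesicle cysteine string protein (log2 fold change 0.74, limma adjusted p = 0.151). The HSP90 list had 1 of 18 higher, also below that share, the co-chaperone *Chordc1* (log2 fold change 0.58, limma adjusted p = 0.216), and *Hsp90ab1*, the constitutive cytosolic HSP90, was 419 ± 84.7 TPM in WT and 383 ± 85.8 TPM in cKO (SD, n = 3). The BAG list had 1 of 5 higher (*Bag2*, log2 fold change 0.78) and 0 lower. By sign, 3 of its log2 fold changes were positive and 2 negative, the lowest being *Bag1* at -1.81 with overlapping groups. The small heat shock list had 1 of 6 higher (*Hspb6*, log2 fold change 0.65) and 0 lower. By sign, 4 were positive and 2 negative, *Hspb2* at -1.07 and *Hspb8* at -0.46, both with overlapping groups. Of the 9 chaperonin genes 0 were higher or lower at an unadjusted p of 0.05, and *Hspe1*, the HSP10 partner of *Hspd1*, had a log2 fold change of 0.24. *Hsf1*, whose product drives the inducible members, was 68.1 ± 16.9 TPM in WT and 69.4 ± 12.2 TPM in cKO (SD, n = 3), a log2 fold change of 0.04 (SE 0.26, 95% interval -0.58 to 0.67, limma adjusted p = 0.945). The list of heat shock factors had 0 of 4 higher or lower at an unadjusted p of 0.05, all 4 with a positive log2 fold change and a median of 0.48 (0.35 after scaling, when *Hsf1* was -0.12). *Hsf2* had a log2 fold change of 0.54 without overlap (limma adjusted p = 0.332), *Hsbp1*, which binds HSF1, of 0.90 (limma adjusted p = 0.438) and *Hsf4* of 0.42 (limma adjusted p = 0.595).

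The list of ER chaperones and the unfolded protein response had 6 of 29 lower (6.45% of all genes) and 0 higher (11.9%) at an unadjusted p of 0.05, with a median of -0.16 (-0.33 after scaling). Log2 fold changes were positive for 10 of the 29, beside 10733 of 17555 over all genes. Every cKO library was above every WT library for 3 (18.7% of all genes) and below for 7 (7.18%). *Atf6* (log2 fold change 0.56, limma adjusted p = 0.289, without overlap) and *Dnajc10* (0.41, with overlap) were the highest. *Sdf2l1*, an ER partner of BiP, was 75.1 to 120 TPM in WT and 29.2 to 38.2 TPM in cKO without overlap (log2 fold change -1.42, SE 0.25, limma adjusted p = 0.124), and *Derl3*, of the ER degradation machinery, had a log2 fold change of -1.45 (limma adjusted p = 0.194). *Hsp90b1*, the ER HSP90, was 600 ± 115 and 594 ± 74.2 TPM (SD, n = 3), close in the way *Hspa5* was.

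A list of 20 immediate early genes that are also known to rise during tissue dissociation had 8 lower (6.45% of all genes) and 0 higher (11.9%) at an unadjusted p of 0.05, 19 with a negative log2 fold change beside 6822 of 17555 over all genes, and a median of -0.93 (-1.10 after scaling). *Fos* was 3729, 2514 and 4346 TPM in WT and 1544, 1320 and 2571 TPM in cKO (log2 fold change -0.99, SE 0.35, limma adjusted p = 0.209). As for *Hspa1a*, only cKO replicate 3 and WT replicate 2 overlapped. *Klf6* had a log2 fold change of -1.53 and *Ier2* of -1.21, both without overlap. The part of these genes, and of the cell type markers given above, in the levels of *Hspa1a*, *Hspa1b* and *Dnajb1* was not tested.

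**Figure D4:**
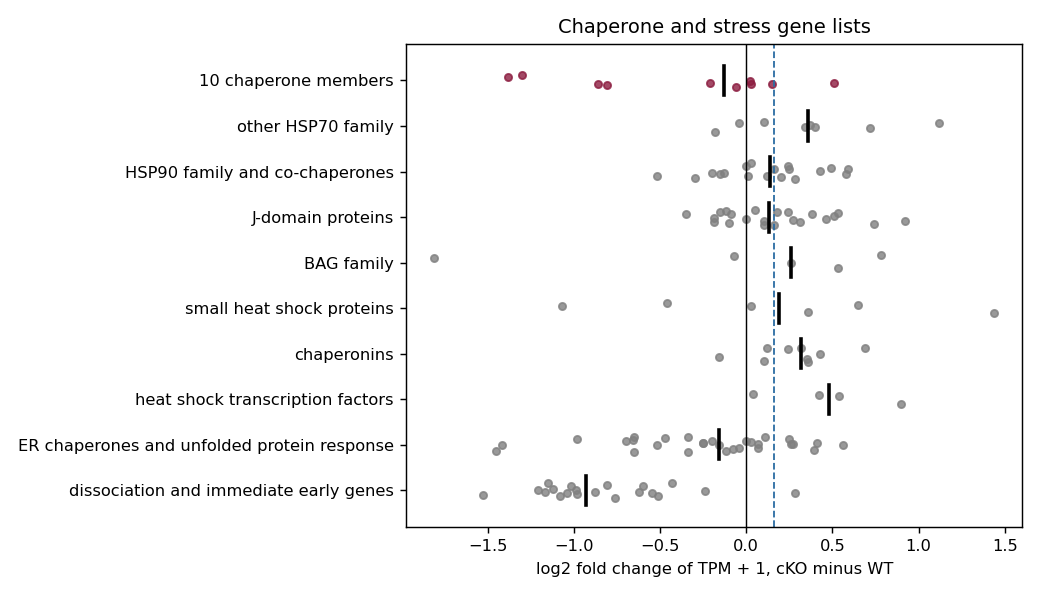
Log2 fold change of TPM + 1 (cKO minus WT) of each tested gene (points, spread vertically at random) in the chaperone genes described here (red) and in 9 related lists (grey), with a bar at each list's median and the median of all genes as a dashed line. The immediate early genes lie mostly below 0 with a median of -0.93, and the other HSP70 family genes lie mostly above 0 with a median of 0.36.

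The genes whose pattern over the libraries most resembled that of *Hspa1a* plus *Hspa1b* were found by Pearson's r of log2(TPM + 1) over the 6 libraries, among 12662 genes with a mean of at least 5 TPM. These were *Spcs3* (r = 0.999), a signal peptidase subunit, *Sh3kbp1* (r = 0.996), an endocytic adaptor, *Ezr* (r = 0.993), which encodes ezrin, *Alox5ap* (r = 0.993), of leukotriene synthesis, and *Zfp36* (r = 0.993), an immediate early gene of mRNA decay. They were chosen for being alike, all points share the 6 libraries, and r is given as a description. The size of a change does not enter r. *Spcs3* ran from 34.1 to 57.0 TPM over the libraries, and the sum of the pair from 120 to 774 TPM. *Zfp36*, for example, was 386, 263 and 520 TPM in WT and 192, 128 and 228 TPM in cKO, so that its WT libraries lay above all its cKO libraries.

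ATAC-seq reads open chromatin, and a region of the comparison lay within 1000 bp of an end of 8 of 10 members, against 51.5% of 15512 tested genes with a position. *Hspa1b* and *Hspb1* had none, and for *Hspa1b* this is uncertain because its promoter is nearly the same as that of *Hspa1a*. Values are the authors' group means of normalized reads over 2 libraries, so they carry no replicate error and no test was made. All 8 regions overlapped a peak in both WT libraries, against 91.0% of 8001 regions at gene ends, and 0 of 8 overlapped a peak in either cKO library, against 18.4%. All 8 had at least 4 times fewer reads in cKO, against 67.5%. The median log2 ratio (cKO minus WT) was -3.30 at the members, -2.50 over all regions at gene ends and -1.57 over all regions, so the fall was general in this table. A closer comparison is with the 7277 regions at gene ends that, like all 8 member regions, overlapped a peak in both WT libraries. Of these 7277, 751 overlapped a peak in a cKO library and 5400 had at least 4 times fewer reads in cKO. The median log2 ratio of the 7277 was -2.62.

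The authors' mean was highest at *Hspa8* and *Hspd1*. At *Hspa8* (chr9:40800690-40801723) it was 156 normalized reads in WT and 7.26 in cKO, 21.6 times fewer. At *Hspd1* (chr1:55087484-55088593), whose region is shared with its neighbour *Hspe1*, it was 142 and 7.73, 18.4 times fewer. These falls were larger than those of 96.2% and 94.2% of regions at gene ends, and the WT reads were higher than those of 98.8% and 98.3%. *Hsp90aa1* (chr12:110695794-110696691) had 81.0 and 7.11 normalized reads, and *Hsph1* (chr5:149635670-149636783) 81.0 and 8.17. *Hspa5* (chr2:34771641-34772628) had 91.1 and 10.1, and *Dnajb1* (chr8:83607719-83608818), in reach of *Gm42029* as well, 95.0 and 9.71. All 6 of these regions span the gene end, and each had more WT reads than at least 90.6% of regions at gene ends.

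The regions of the inducible *Hspa1a* and *Bag3* had few reads. The promoters of *Hspa1a* and *Hspa1b* had the same base at 247 of 250 positions, so ATAC-seq reads there can be hard to place. How this bears on the *Hspa1a* value was not tested. The *Hspa1a* region (chr17:34972243-34972693) lay 87 bp from the start, centred 312 bp upstream and also in reach of *Hspa1l*, with 12.0 normalized reads in WT and 1.78 in cKO (6.77 times fewer). It covers part of the promoter printed above, up to 87 bp from the start, and so includes the bases of its heat shock element. The *Bag3* region (chr7:128523462-128523779) had 12.5 and 2.36 (5.28 times fewer). A peak of cKO replicate 2 lay within 1000 bp of an end of *Bag3*, outside this region. Only 10.6% and 11.2% of regions at gene ends had fewer WT reads than these. RNA and open chromatin were not ordered alike. *Hspa8* had 21.6 times fewer reads in cKO with nearly equal mean TPM in both groups. *Hspa1a*, with the limit on its reads given above, had 6.77 times fewer reads with a mean TPM that was 2.62 times higher in WT.

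**Figure D5:**
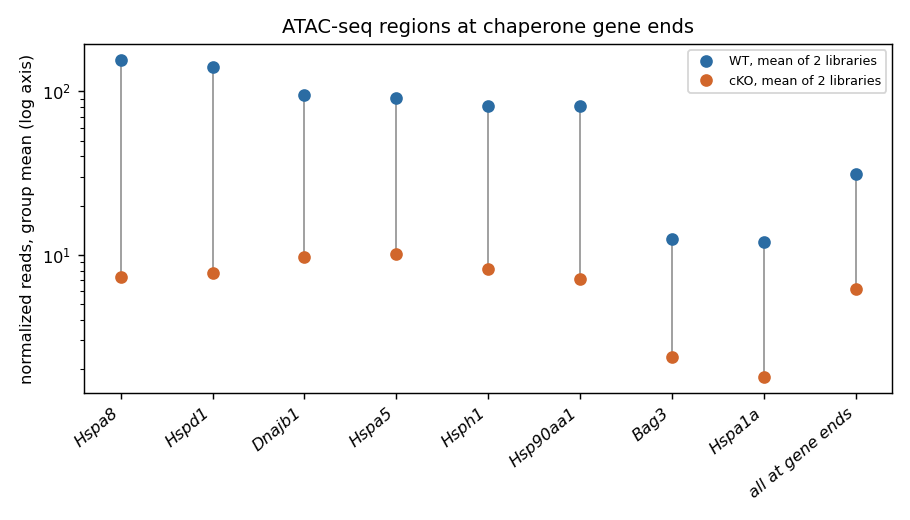
The authors' group mean of normalized ATAC-seq reads (log axis) in WT (blue) and cKO (orange) at the 8 regions near chaperone gene ends, with the median of 8001 regions at gene ends on the right. Each region is lower in cKO, from 12.0 to 156 reads in WT to 1.78 to 10.1 in cKO, beside medians of 31.3 and 6.15 at all gene ends.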

How the data were processed

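Per the study's methods and the submitters' processing notes, the authors quantified RNA-seq reads with Salmon 1.0.0 on a GRCm38 annotation, summed them to genes and deposited TPM per library, with no further scaling. For ATAC-seq the authors aligned reads with Bowtie2 2.3.5.1 to GRCm38 and deposited peak positions per library (MACS2 2.2.5 is named) and log2 group means of normalized reads per region. Per the file headers, further columns hold the authors' fold changes and p-values (DESeq2 1.26.0 for RNA), which were not used.

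Genes with at least 1 TPM in at least 3 libraries were kept, and log2(TPM + 1) was compared with limma 3.58.1 in R 4.3.3 (empirical Bayes with trend) over all genes, with Benjamini-Hochberg adjustment. A fold change on this scale understates changes of low genes. Scripts ran in Python 3.11.15 and were tested on simulated data. Groups come from the sample labels, and p-values measure the spread between these libraries, which may be technical. Deviations from the label mean had r = 0.334, 0.101 and 0.425 across genes for same-numbered libraries, and -0.386 to 0.193 for other pairs. The replicate number therefore served as a block in an alternative, although replicate 2 gave little sign of pairing. Other alternatives were a pseudocount of 0.1, no filter, a mean of 5 TPM, scaling by the median of ratios, no trend, each library left out, 3000 bp around gene ends and 50% overlap. Peaks were shared at 1 bp, and positions are counted from 1. *Hspa8* and *Hsp90aa1* have no strand in the table used.

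The members and lists were chosen with earlier results of these data known. Named genes are the members, *Arid1a*, from the 2 highest and 2 lowest of each list (all of a list with 5 or fewer), 6 well-known partners, and the 5 genes most like *Hspa1a* plus *Hspa1b* by Pearson's r. *Hspa1l* and *Gm42029* are named only as neighbours.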

Additional observations from a re-analysis of the deposited data

How the results depend on the processing

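For every alternative run, 0 members passed an adjusted p of 0.05. *Hspa1a*, *Hspa1b*, *Dnajb1* and *Bag3* were lower in cKO under all 12 alternatives, with log2 fold changes from -1.74 to -0.87, -1.73 to -1.15, -1.12 to -0.59 and -1.40 to -0.28 and adjusted p from limma of 0.0762 to 0.606, 0.0870 to 0.494, 0.113 to 0.643 and 0.301 to 0.821. With the replicate block, which pairs same-numbered libraries, adjusted p was 0.0762 for *Hspa1a*, 0.0870 for *Hspa1b* and 0.113 for *Dnajb1*, and 1 gene of all was called lower in place of 0; the block changed no call on a member. Over all genes, limma without trend called 4 genes higher in place of 1. Leaving out 1 library gave 0 to 1 gene called higher, 0 without cKO replicate 1, 2 or 3, and 0 to 1 called lower, 1 without cKO replicate 3. The cause was not tested. Without WT replicate 2, added after the data were seen, the count of members with all cKO below WT was 5 in place of 1. With 3000 bp both ATAC-seq counts were again 8 and the median -3.30; the stricter overlap was run only for peaks in both WT libraries, again 8, and the median was -3.30 over regions with such peaks. No paired analysis was possible because the ATAC-seq comparison gives group means only. TPM keeps no depth, so counting error is unknown.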

Other observations

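Although no region at a chaperone gene end held a cKO peak, peaks of single cKO libraries lay elsewhere over some of these genes. *Hsph1* had 1 in cKO replicate 1, *Dnajb1* had 1 in cKO replicate 2, and *Bag3* had 2 in cKO replicate 2, 1 of which lay within reach of a gene end. *Bag1*, a further BAG family gene, was 60.7, 391 and 16.3 TPM in WT and 24.5, 27.2 and 12.5 TPM in cKO, so WT replicate 2 stood far above the rest for *Bag1* as it did for *Bag3*.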
